A study of Homo sapiens with 4 samples.

Results

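RNA-seq of BE(2)C cells was used to describe 30 genes of cholesterol and fatty acid synthesis after knockdown of MYCN. The genes were chosen by symbol, as the enzymes of the mevalonate, sterol and fatty acid pathways and the regulators that control them, and all 30 were present among the 26364 genes listed for each sample. BE(2)C (BE2C in the labels) is a human neuroblastoma line with amplified MYCN. The 2 Ctrl samples, labelled wild type, received a non-targeting siRNA, and the 2 MYCN KD samples received siRNA against MYCN. All 4 samples were transfected with Lipofectamine 2000 for 6 h, with siRNA at 80 nM in the labels (the methods of the study give a lower concentration), and RNA was taken the next day. A single siRNA against MYCN in a single cell line was used. The study calls the replicates biological, but the labels do not say whether they were separate cultures, so their spread may be technical. The p-values measure only the spread left between these samples after the adjustment made by the authors.

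Cells make cholesterol from acetyl-CoA by way of mevalonate, farnesyl diphosphate, squalene and lanosterol. The same acetyl-CoA feeds fatty acid synthesis. Both routes are controlled by the sterol regulatory element binding proteins (SREBPs), membrane-bound transcription factors that SCAP carries from the endoplasmic reticulum to the Golgi when sterols are low, and that INSIG proteins hold back when sterols are high. Growing tumour cells use both routes to build membranes.

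Values were RPKM (reads per kilobase of gene, relative to the total of mapped reads), which the authors calculated from read counts after removal of unwanted variation. The totals of reads behind the values, recovered from the steps between RPKM values, lay between 29055819 and 34142988. Each of the 30 genes had from 249 to 40253 reads in a sample. Differences were tested on log2(RPKM + 1) with limma over the 11411 genes that averaged 1 RPKM or more, at an adjusted p of 0.05. All 30 genes passed this filter. Fold changes below are log2 differences of RPKM + 1, MYCN KD minus Ctrl. MYCN had 1068 and 1073 RPKM in Ctrl against 720.2 and 718 in MYCN KD. The fold change was -0.57 on the log2 scale (limma, standard error 0.029, adjusted p = 0.00361), so both knockdown samples carried the labelled change. All 10 markers of sympathetic neuroblastoma examined (such as HAND2, GATA3 and DBH) were above 1 RPKM in each sample, and their summed level was 3579 to 3888 RPKM in Ctrl and 5038 to 5462 RPKM in MYCN KD. Of 13 markers of other cell types, 8 were below 1 RPKM in each sample. The sum of the 13 was 18.3 and 19.9 RPKM in Ctrl against 31.9 and 31.0 in MYCN KD. CD68, DCN and LUM were above 1 RPKM in each sample. CD68 had 4.26 and 3.45 RPKM in Ctrl against 9.40 and 11.5 in MYCN KD, and DCN had 4.58 and 5.52 against 9.33 and 7.78, while the groups overlapped for LUM. COL1A1 and KRT8 were below 1 RPKM in Ctrl and reached 1.78 and 1.28 RPKM in MYCN KD, and PTPRC, PECAM1 and ALB were at or near 0. The part of this difference in the results below was not tested.

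The synthesis genes moved in both directions. SREBF2, MVK, TM7SF2 and ACSS2 were among those that rose in MYCN KD, and FASN, ACACA and SCD among those that fell. Of the 30 genes, 9 rose (30%) and 7 fell (23.3%) at an adjusted p under 0.05 from limma, and 14 did not pass. Among all 11411 tested genes 48.1% passed, 25.3% as higher and 22.8% as lower, so the shares of synthesis genes called were close to those of the transcriptome. The median log2 fold change was 0.098 for the 30 genes and 0.026 for all tested genes. The groups did not overlap in 21 of the 30 genes, 13 with both MYCN KD values above both Ctrl values and 8 with both below. The same held for 40.4% and 35.8% of all tested genes. An exact two-sided permutation test cannot give a p below 0.33 with 2 samples in each group, so single genes rest on the limma fit. In bulk RNA, fewer cells that express a gene and less of its RNA per cell cannot be told apart.

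The knockdown samples had smaller totals than the controls, and RPKM divides by them: when the same normalized reads were taken per kilobase without this division, the median of all tested genes moved by -0.118 on the log2 scale, the calls were 3 higher and 7 lower among the 30 genes, and 16.7% higher and 31.5% lower among all genes. The median of the 30 genes was then -0.029 against -0.092 for all genes. With each sample rescaled to the same RPKM total, the split of the 30 was 11 higher and 5 lower. The count of genes that fell also rested on single libraries, with 3 left without Ctrl replicate 1 or without MYCN KD replicate 1, and 4 without MYCN KD replicate 2. MVK, TM7SF2, ACSS2, ACACA, FASN and SCD were the 6 called genes that kept their direction and call under each of the 14 alternatives tried. Among the 14, the crossed replicate block (replicate 1 of a group set with replicate 2 of the other) called all 30 genes. Keeping a call in that setting is therefore no check. With the replicate number as a block in the fit, LSS, NSDHL, SC5D, DHCR7, SREBF1, SCAP, ACLY and FADS2 lost their calls. This comes on top of the settings named for each of these genes below.

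**Figure D1:**
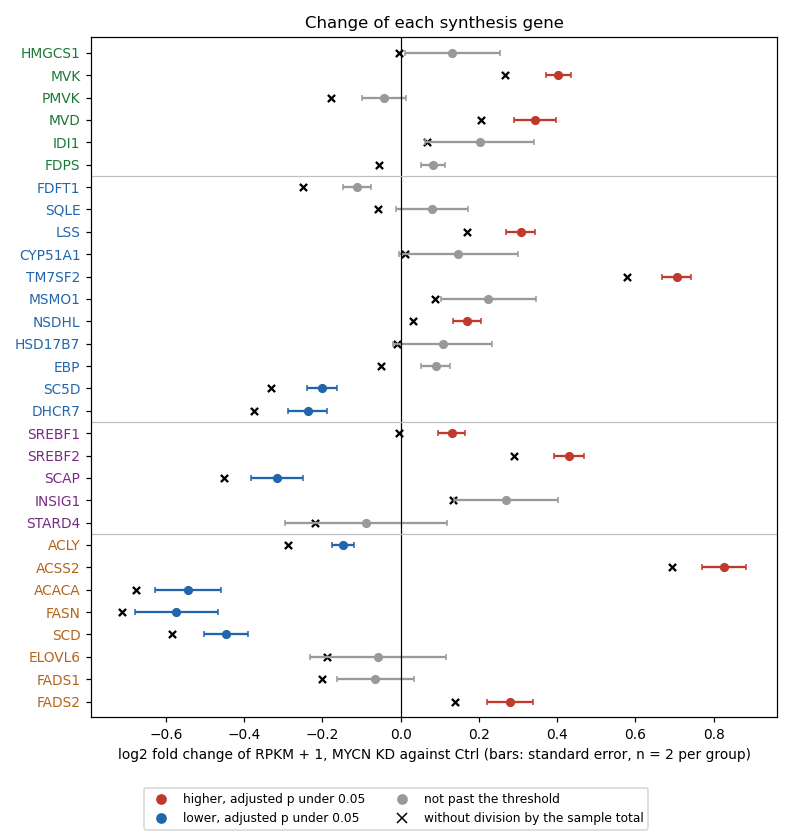
Log2 fold change of RPKM + 1 (x axis, MYCN KD against Ctrl) of each of the 30 genes, in pathway order. Points with bars give the estimate and its standard error with 2 samples per group, coloured by the limma call, and crosses give the value without division by the sample total. ACSS2 (0.83) and TM7SF2 (0.71) stand highest and FASN (-0.57) and ACACA (-0.54) lowest, and each cross lies to the left of its point.

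The regulators moved in opposite directions. SREBF2 encodes SREBP2, the SREBP that mainly drives cholesterol synthesis and uptake. It had 113 and 109 RPKM in Ctrl against 148 and 152 in MYCN KD, so that both knockdown samples were above both controls. SREBF2 rose by 0.43 (standard error 0.038, adjusted p = 0.00639 from limma), a ratio of mean RPKM of 1.35. Without division by the sample total its fold change was 0.29 (adjusted p = 0.0680 from limma). SREBF1, which encodes the SREBP1 proteins that mainly drive fatty acid synthesis, had 19.9 RPKM in each Ctrl sample and 21.9 RPKM in each MYCN KD sample. It passed the threshold narrowly (0.13, standard error 0.034, adjusted p = 0.0496 from limma), and the call ended, with a value of -0.0031, without division by the sample total. It also ended when any single library was left out, with quantile normalization and with eBayes without a trend. SCAP, the escort of the SREBPs, was lower, with 28.5 and 26.4 RPKM in Ctrl against 21.0 and 22.7 in MYCN KD. SCAP fell by 0.32 on the log2 scale (standard error 0.067, adjusted p = 0.0316 from limma), and the call was lost without Ctrl replicate 1 or MYCN KD replicate 1.

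INSIG1, itself a well-known SREBP target, had 22.6 and 27.0 RPKM in Ctrl against 32.6 and 27.5 in MYCN KD. Its groups were only just apart, and the fold change of 0.27 (standard error 0.13) was not past the threshold (adjusted p = 0.179 in limma). It passed without Ctrl replicate 2 and without MYCN KD replicate 2. STARD4, a cytosolic carrier of cholesterol, had 13.4 and 17.8 RPKM in Ctrl against 16.6 and 12.6 in MYCN KD. These ranges overlapped, and the value of -0.09 (adjusted p = 0.748 from limma) changed sign when Ctrl replicate 2 or MYCN KD replicate 2 was left out.

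The promoters of these regulators show which letters stand near the starts of genes that moved apart. RefSeq promoter windows (250 bases before to 50 after the start, GRCh38.p14) were found for 27 of the 30 genes. They were searched on both strands for the E-box CACGTG, the sequence bound by MYC proteins with MAX, for TCACNCCAC, a core of the sterol regulatory element that SREBPs bind, for the NF-Y box CCAAT and for the GC box GGGCGG. The E-box reads the same on both strands, and no motif contains another. Positions count from the start as +1, with no 0. The SREBF2 and SCAP stretches are shown because these regulators were the called ones that rose and fell most and hold 1 of the first 2 motifs each. Capitals mark the TCACNCCAC match in SREBF2 and the CACGTG match in SCAP.
SREBF2, chr22:41832855-41833104, plus strand, -250 to -1: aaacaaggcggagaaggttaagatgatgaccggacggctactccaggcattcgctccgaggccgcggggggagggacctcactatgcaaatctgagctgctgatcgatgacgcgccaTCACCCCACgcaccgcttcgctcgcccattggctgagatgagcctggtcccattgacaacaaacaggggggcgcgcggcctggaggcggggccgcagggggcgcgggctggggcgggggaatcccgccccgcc
SCAP, chr3:47475942-47476191, minus strand, -250 to -1: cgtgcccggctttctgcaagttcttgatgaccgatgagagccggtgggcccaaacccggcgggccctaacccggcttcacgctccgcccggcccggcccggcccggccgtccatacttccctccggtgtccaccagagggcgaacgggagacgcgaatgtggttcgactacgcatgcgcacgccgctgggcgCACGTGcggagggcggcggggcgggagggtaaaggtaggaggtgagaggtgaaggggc

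Each stretch has 1 exact match on its chromosome in GRCh37, the build of the study. There the SREBF2 stretch lies at chr22:42228859-42229108, inside an exon of the antisense gene SREBF2-AS1 in GENCODE, and the SCAP stretch lies at chr3:47517432-47517681, inside the SCAP gene, in an intron of a transcript that starts further upstream, with its last 14 bases in an exon of another transcript. The match in SREBF2 begins at -133 and the one in SCAP at -58. Besides SCAP, the E-box was found in INSIG1, SC5D and LSS. Capitals mark it in the short stretches around it, which were added after the values were seen. In GRCh37 the INSIG1 and LSS stretches overlap exons of their own gene and the SC5D stretch overlaps no annotated feature.
INSIG1, chr7:155297811-155297840, plus strand: gccgggcaggctCACGTGatgcgggccccg
SC5D, chr11:121292610-121292675, plus strand: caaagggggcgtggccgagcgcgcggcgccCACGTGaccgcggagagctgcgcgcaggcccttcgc
LSS, chr21:46228725-46228746, minus strand: aatgacggagggCACGTGagtc

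The E-box was thus held by 4 of 27 genes (14.8%), against 8.77% of the 27305 genes in the promoter table and 13.2% of the tested genes in it. Of the 4, LSS rose, SCAP and SC5D fell and INSIG1 did not pass the threshold. The exact form TCACNCCAC was held by SREBF2 alone (3.70% of 27 genes), against 1.44% of tested genes. Other forms of the sterol element, and bases outside the windows, were not searched. FASN, FDFT1 and SQLE had no window, so nothing can be said of their promoters. CCAAT was found in 21 genes (77.8%, against 43.9% of tested genes) and GGGCGG in 26 (96.3%, against 78.3%). These matches describe the letters in the windows and were not tested as binding sites.

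Of the 6 mevalonate enzymes, 2 were called higher (33.3%, against 25.3% of all tested genes) and 0 lower (against 22.8%). The other 4 did not pass the threshold. MVK, mevalonate kinase, had 31.5 and 31.2 RPKM in Ctrl against 41.6 and 42.0 in MYCN KD. Its groups were far apart for their spread, and it rose by 0.40 (standard error 0.033, adjusted p = 0.00566 from limma). MVD, which decarboxylates mevalonate diphosphate to the isoprene unit, had 42.2 and 39.7 RPKM in Ctrl against 50.7 and 53.8 in MYCN KD. MVD rose by 0.34 (standard error 0.055, adjusted p = 0.0174 from limma), with 0.21 and no call without division by the sample total.

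HMGCS1, the synthase that makes HMG-CoA, had 24.8 and 29.1 RPKM in Ctrl against 31.9 and 27.4 in MYCN KD. IDI1, the isomerase of the isoprene unit, had 30.5 and 36.7 RPKM in Ctrl against 42.2 and 35.4 in MYCN KD. In both genes Ctrl replicate 2 lay above MYCN KD replicate 2, and neither passed the threshold (0.13 and 0.20, adjusted p = 0.414 and 0.296 from limma). IDI1 passed without Ctrl replicate 2 and without MYCN KD replicate 2. PMVK, phosphomevalonate kinase, had 49.9 and 46.8 RPKM in Ctrl against 45.5 and 48.4 in MYCN KD, which overlap (-0.04, adjusted p = 0.574 from limma). FDPS, which makes farnesyl diphosphate for sterols and for protein prenylation, was expressed more than the other mevalonate enzymes listed, with 143 and 145 RPKM in Ctrl against 154 and 152 in MYCN KD. Its groups did not overlap, but the value of 0.08 (standard error 0.031) did not pass (adjusted p = 0.108 from limma). FDPS was called higher with a common RPKM total (0.14) and with quantile normalization (0.17), and had -0.06 without division by the sample total.

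Among the 11 squalene and sterol enzymes, 3 rose (27.3%) and 2 fell (18.2%), against 25.3% and 22.8% of all tested genes. The other 6 did not pass the threshold. TM7SF2, a reductase of sterol intermediates, changed most, from 7.96 and 8.07 RPKM in Ctrl to 13.8 and 13.6 RPKM in MYCN KD. It rose by 0.71 (standard error 0.038, adjusted p = 0.00379 from limma), more than 94.4% of all tested genes. LSS, the cyclase that makes lanosterol, had 36.3 and 35.3 RPKM in Ctrl against 43.9 and 45.1 in MYCN KD and rose by 0.31 (standard error 0.038, adjusted p = 0.0106 from limma). NSDHL, a dehydrogenase that removes carbon from the sterol ring, had 42.1 and 41.1 RPKM in Ctrl against 46.4 and 47.4 in MYCN KD. It rose by 0.17 (standard error 0.036, adjusted p = 0.0320 from limma). Without division by the sample total neither LSS (0.17) nor NSDHL (0.03) was called. NSDHL lost its call when any single library was left out, and LSS without MYCN KD replicate 2.

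The sterol enzymes that fell act late in the route. DHCR7, the reductase that yields cholesterol in the last step of one branch, had 66.6 and 63.2 RPKM in Ctrl against 53.5 and 56.4 in MYCN KD. It fell by 0.24 on the log2 scale (standard error 0.050, adjusted p = 0.0315 from limma). SC5D, the desaturase that makes the substrate of DHCR7, had 13.2 and 13.5 RPKM in Ctrl against 11.6 and 11.4 in MYCN KD, and fell by 0.20 on the log2 scale (standard error 0.039, adjusted p = 0.0259 from limma). Both MYCN KD samples were below both controls in each gene. The call of SC5D was lost when any single library was left out, and with a common RPKM total. That of DHCR7 was lost without Ctrl replicate 1, MYCN KD replicate 1 or MYCN KD replicate 2, and narrowly without division by the sample total (adjusted p = 0.0533 from limma).

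The other sterol enzymes did not pass. SQLE, squalene epoxidase and a rate-controlling step, had 75.8 and 85.1 RPKM in Ctrl against 89.8 and 80.3 in MYCN KD, with overlapping groups (0.08, adjusted p = 0.509 from limma). CYP51A1, the lanosterol demethylase, also overlapped, with 22.9 and 28.1 RPKM in Ctrl against 31.1 and 25.6 in MYCN KD (0.15, adjusted p = 0.465 from limma). MSMO1, the methylsterol oxidase, had 32.0 and 37.5 RPKM in Ctrl against 43.8 and 37.7 in MYCN KD, groups that nearly touched (0.22, standard error 0.12, adjusted p = 0.206 from limma). It passed without Ctrl replicate 2 and without MYCN KD replicate 2. HSD17B7, the ketosteroid reductase of the route and the lowest of the 30 genes, had 4.19 and 5.08 RPKM in Ctrl against 5.53 and 4.60 in MYCN KD (0.11, adjusted p = 0.521 from limma). Its value is uncertain, since reads can be split with the near-identical copy HSD17B7P2, listed at 0.251 to 0.418 RPKM. FDFT1, squalene synthase, had 60.0 and 61.6 RPKM in Ctrl against 56.9 and 55.5 in MYCN KD. Its groups were apart, but -0.11 (standard error 0.036) did not pass (adjusted p = 0.0804 from limma). FDFT1 was called lower without division by the sample total (-0.25, adjusted p = 0.0286 from limma). EBP, the sterol isomerase, had 152 and 148 RPKM in Ctrl against 158 and 162 in MYCN KD, also apart without a call (0.09, standard error 0.036, adjusted p = 0.125 from limma). EBP was called higher with a common RPKM total (0.15) and with quantile normalization (0.18), and had -0.05 without division by the sample total.

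**Figure D2:**
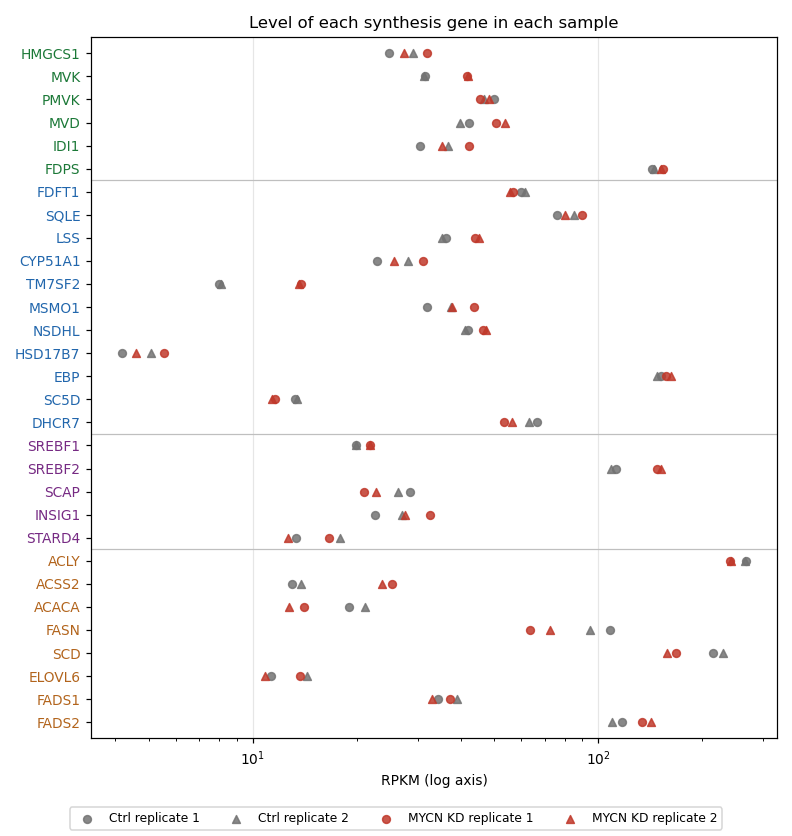
RPKM (x axis, log scale) of each of the 30 genes in the 4 samples, with Ctrl in grey and MYCN KD in red, replicate 1 as circles and replicate 2 as triangles, and gene names coloured by role. Levels ran from 4.19 RPKM (HSD17B7) to 268 RPKM (ACLY), with the grey and red points of TM7SF2 and ACSS2 well apart and those of STARD4 and ELOVL6 interleaved.

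The largest falls of the 30 genes were in fatty acid synthesis, with 4 of 8 enzymes called lower (50%, against 22.8% of all tested genes) and 2 called higher (25%, against 25.3%). The call of ACLY, 1 of the 4, was lost in several alternatives given below. FASN, the synthase that builds palmitate, had 109 and 94.9 RPKM in Ctrl against 63.6 and 72.6 in MYCN KD. Every MYCN KD value lay below every Ctrl value, and FASN fell by 0.57 on the log2 scale (standard error 0.11, adjusted p = 0.0239 from limma), to 0.669 of the mean Ctrl RPKM. ACACA, the carboxylase that makes the malonyl-CoA used by FASN, had 19.0 and 21.1 RPKM in Ctrl against 14.1 and 12.7 in MYCN KD. ACACA fell by 0.54 on the log2 scale (standard error 0.083, adjusted p = 0.0164 from limma). SCD, the desaturase that turns saturated into monounsaturated fatty acids, was among the most expressed of the 30 genes, at 216 and 230.1 RPKM in Ctrl against 168 and 158 in MYCN KD. It fell by 0.45 on the log2 scale (standard error 0.057, adjusted p = 0.0113 from limma). FASN, ACACA and SCD stood among the lower changes of the transcriptome, with 7.81%, 8.64% and 12.3% of tested genes below them.

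The enzymes that supply cytosolic acetyl-CoA went opposite ways. ACLY, which splits citrate, had 268 and 267 RPKM in Ctrl against 241 and 242 in MYCN KD. ACLY fell by 0.15 on the log2 scale (standard error 0.029, adjusted p = 0.0270 from limma), a small change that was no longer called when any single library was left out, after rescaling to a common RPKM total or with quantile normalization. ACSS2, which makes acetyl-CoA from acetate and is a well-known SREBP target, had 13.0 and 13.8 RPKM in Ctrl against 25.2 and 23.7 in MYCN KD. Both knockdown values were far above both controls, and ACSS2 rose by 0.83 (standard error 0.057, adjusted p = 0.00459 from limma), a ratio of mean RPKM of 1.83 and the largest change of the 30 genes. In level ACLY stayed well above ACSS2 in each of the 4 samples on the RPKM scale.

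The elongase and the polyunsaturated desaturases were not called lower, unlike FASN and SCD. FADS2 had 118 and 110 RPKM in Ctrl against 134 and 143 in MYCN KD and rose by 0.28 (standard error 0.059, adjusted p = 0.0318 from limma), with no call (0.14) without division by the sample total, without Ctrl replicate 2 or without MYCN KD replicate 2. FADS1, its neighbour in the desaturation route, had 34.5 and 39.1 RPKM in Ctrl against 37.3 and 33.0 in MYCN KD. ELOVL6, which lengthens palmitate, had 11.3 and 14.4 RPKM in Ctrl against 13.7 and 10.9 in MYCN KD. The groups of FADS1 and ELOVL6 overlapped, with values of -0.06 (standard errors 0.099 and 0.17, adjusted p = 0.617 and 0.802 from limma). Both values changed sign without Ctrl replicate 2 or MYCN KD replicate 2, so whether FADS1 and ELOVL6 fell cannot be said. Exons of FADS1 and FADS2 overlap on opposite strands over 490 bases in GENCODE, and those of MVK and MMAB, SREBF1 and RAI1, and CYP51A1 and AKAP9 overlap over 225, 556 and 108 bases. The strand setting of the counting is not given in the sources used here, so reads in these stretches cannot be told apart.

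**Figure D3:**
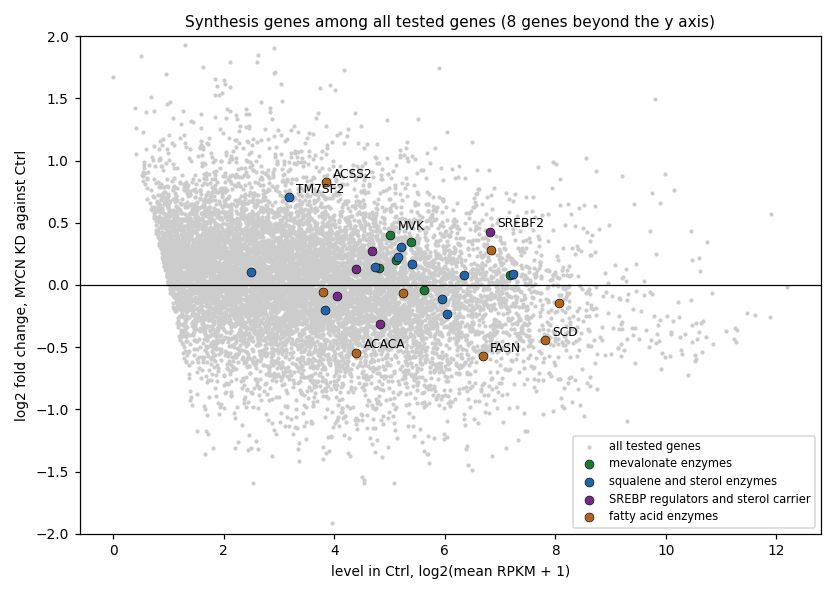
Log2 fold change (y axis, MYCN KD against Ctrl) against the level in Ctrl (x axis, log2 of mean RPKM + 1) for the 11411 tested genes in grey and the 30 synthesis genes in colour by role, with 8 genes beyond the y axis. The synthesis genes lie within the cloud, from -0.57 (FASN) to 0.83 (ACSS2).

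Differences between replicates followed a shared pattern. In 18 of the 30 genes Ctrl replicate 2 was above replicate 1 while MYCN KD replicate 1 was above replicate 2, and in the other 12 both signs were opposite. The deviations were mirror images at nearly all tested genes too, where these shares were 56.5% and 42.9%. The gap between the Ctrl replicates exceeded 0.15 on the log2 scale, with replicate 2 higher, in 10 genes (33.3%): STARD4, ELOVL6, CYP51A1, IDI1, INSIG1, HSD17B7, MSMO1, HMGCS1, FADS1 and SQLE. Among all tested genes 22.3% did so. The gap was largest for STARD4 (0.39), ELOVL6 (0.32) and CYP51A1 (0.28). None of these 10 genes was called in the limma fit (0 of 10), whereas of the 2540 such genes among all tested genes 605 were. The gap is part of the spread that limma sets a change against. Genes grouped by a large gap are therefore called less often by construction, and these counts carry no separate information. FASN alone had a gap of that size in the other direction (-0.19) and was called. This grouping was made after the values were seen, and its cause was not tested.

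**Figure D4:**
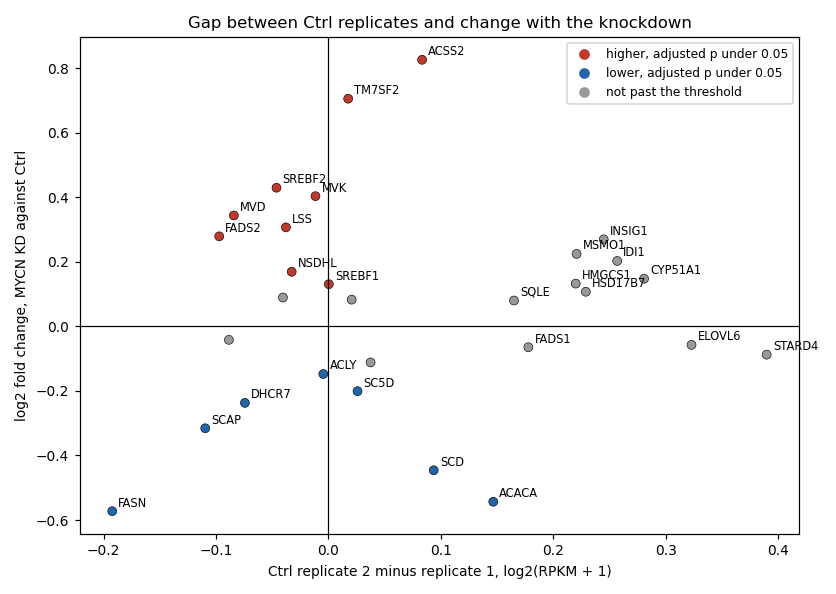
Log2 fold change of the 30 genes (y axis, MYCN KD against Ctrl) against the difference between Ctrl replicates 2 and 1 (x axis, log2 of RPKM + 1), coloured by the limma call. The 10 genes to the right of 0.15 (from SQLE at 0.16 to STARD4 at 0.39) are all grey, and the called genes lie at smaller gaps except FASN at -0.19. The gap is part of the spread used for the limma call, so the 2 are not independent.

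Related genes of lipid metabolism were read from lists fixed by pathway role. Of 10 further factors of SREBP processing and sterol sensing, 1 rose (10%) and 2 fell (20%), against 25.3% and 22.8% of all tested genes. Both counts changed without Ctrl replicate 1 or MYCN KD replicate 1, and they were 1 and 4 without division by the sample total. C12orf49, now named SPRING1 and needed for SREBP processing, fell to 0.709 of its mean Ctrl RPKM (-0.47, adjusted p = 0.00529 from limma). ERLIN1, an endoplasmic reticulum protein that restrains SREBP activation, had -0.41 (adjusted p = 0.0120 from limma), and RNF139, a ubiquitin ligase of the same membrane, had 0.26 (adjusted p = 0.0422 from limma). Among 7 other genes of sterol synthesis, 2 rose (28.6%, against 25.3% of all tested genes) and 0 fell (against 22.8%). The count of falls changed when any single library was left out. FAXDC2, a relative of the methylsterol oxidase, rose from 9.41 and 8.98 RPKM to 18.8 and 19.6 RPKM (0.99, adjusted p = 0.00359 from limma), and CYB5R3, a cytochrome b5 reductase, had 0.39 (adjusted p = 0.0386 from limma). CYB5R3 was not called without division by the sample total (0.25, adjusted p = 0.231 from limma), which left 1 gene higher, as did the fit with no filter on low values. The isoprenoid branch uses farnesyl diphosphate for prenyl groups and ubiquinone. Of its 13 genes, 2 rose (15.4%) and 4 fell (30.8%), against 25.3% and 22.8% of all tested genes. The count of rises changed when any single library was left out, and that of falls without Ctrl replicate 2 or MYCN KD replicate 2. The split was 1 higher and 8 lower without division by the sample total. RABGGTB, a subunit of the transferase that prenylates RAB proteins, fell by 0.89 on the log2 scale, PDSS1 by 0.66 and COQ2, both enzymes of ubiquinone synthesis, by 0.37 (adjusted p = 0.00460, 0.00425 and 0.0266 from limma).

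Of 12 tested genes of sterol storage, transport and LXR signalling, 4 rose (33.3%) and 2 fell (16.7%), against 25.3% and 22.8% of all tested genes. The split turned to 2 and 5 without division by the sample total. NPC2, a lysosomal cholesterol carrier, rose from 6.99 and 6.21 RPKM to 13.9 and 15.6 RPKM (1.05, adjusted p = 0.00597 from limma). SCARB1, a receptor for high-density lipoprotein, fell from 111 and 100.3 RPKM to 51.2 and 56.6 RPKM (-0.96, adjusted p = 0.00607 from limma). CYP27A1, a sterol hydroxylase, had a value of 0.66 (adjusted p = 0.0167 from limma). Of 19 tested further genes of fatty acid synthesis, elongation and desaturation, 5 rose (26.3%) and 4 fell (21.1%), close to the shares of all tested genes. The falls numbered 2 without Ctrl replicate 1 or MYCN KD replicate 1, and the split was 2 higher and 6 lower without division by the sample total. ACACB, the isoenzyme of ACACA whose malonyl-CoA restrains fatty acid oxidation, had 0.893 and 0.788 RPKM in Ctrl against 1.91 and 2.15 in MYCN KD (0.72, adjusted p = 0.00634 from limma). It was below 1 RPKM in both Ctrl samples and passed the filter on the mean only through its MYCN KD values. Its place among the 5 rises depends on that, and its low level makes it a poor match for ACACA. MCAT, of mitochondrial fatty acid synthesis, and HACD2, of elongation, had -0.62 and -0.56 (adjusted p = 0.0147 and 0.00476 from limma).

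Fatty acid oxidation held the largest share of rises among these lists, with 11 of 23 tested genes higher (47.8%, against 25.3% of all tested genes). Another 4 were lower (17.4%, against 22.8%). The count of falls changed without Ctrl replicate 2 or MYCN KD replicate 2. The split was 9 higher and 5 lower without division by the sample total. The median log2 fold change was 0.23, and 0.10 without division by the sample total, against 0.026 and -0.092 for all tested genes. CPT1A, which brings long-chain fatty acids into mitochondria, rose from 19.6 and 18.7 RPKM to 37.4 and 39.2 RPKM (0.96, adjusted p = 0.00364 from limma). CPT1C, its neuronal relative, and ACADVL, the dehydrogenase for very long chains, rose by 0.80 and 0.77 (adjusted p = 0.00472 and 0.00620 from limma). The 4 genes called lower were HADH (-0.47), ACADSB (-0.38), HADHA (-0.31) and ACAD9 (-0.15), so the list did not move as a whole. Of 21 tested genes of glycerolipid synthesis and lipid droplets, 4 rose (19.0%) and 4 fell (19.0%), against 25.3% and 22.8% of all tested genes. The rises numbered 2 without Ctrl replicate 2 or MYCN KD replicate 2, and the split was 2 higher and 7 lower without division by the sample total. AGPAT3, an acyltransferase of phosphatidic acid synthesis, and DGAT2, which makes triglycerides, fell by 1.02 and 0.72 on the log2 scale, and CDS2, of phosphatidylinositol synthesis, rose by 0.94 (adjusted p = 0.00359, 0.00463 and 0.0135 from limma).

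**Figure D5:**
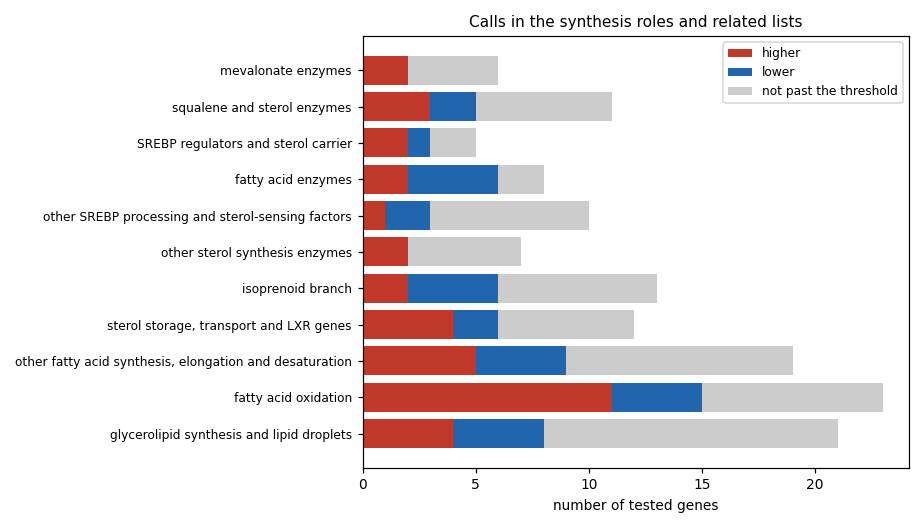
Number of tested genes (x axis) called higher (red), called lower (blue) or not past the threshold (grey) in the 4 roles of the 30 synthesis genes and in 7 related lists. Fatty acid oxidation has 11 genes called higher of 23, and the fatty acid enzymes have 4 called lower of 8. Of all tested genes 25.3% were called higher and 22.8% lower.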

How the data were processed

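RNA-seq of 2 Ctrl and 2 MYCN KD samples of BE(2)C cells was used. The authors mapped reads to hg19 (HISAT2 2.1.0 in the submitters' processing notes), obtained counts of RefSeq genes from featureCounts and applied DESeq2 and then RUVSeq, which takes out unwanted variation. The deposited values are RPKM made by the authors from the counts that RUVSeq returned, 1 file per sample. The number of factors removed is not given in the sources used here. From these values, totals and reads were recovered through small RNA genes of known length. Of these, 92.9% to 94.1% gave whole reads. For the 19908 genes above 0, the length was set to the smallest that gave whole reads in each sample (within 0.005 reads, wider for large counts), so their fit is partly by construction. Counting error is only part of the error, since reads were adjusted before deposit.

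Log2(RPKM + 1) was tested with limma 3.58.1 in R 4.3.3 (lmFit, eBayes with a trend, no block, Benjamini-Hochberg adjustment over the 11411 genes that averaged 1 RPKM or more, threshold 0.05). The fit was tested on simulated data. Alternatives were a pseudocount of 0.1, no filter or a mean of 5 RPKM or more, a common RPKM total, quantile normalization, no trend, limma voom on recovered reads, a replicate block and each sample left out. The crossed block and the values without division by the sample total were added after seeing the data. The 30 genes, gene lists and naming rule (all 30 genes, and the 3 largest called changes of each related list) were chosen with earlier results of these data known. Positions on GRCh37 came from GENCODE release 44, and promoters from RefSeq. A further cell type marker is not reported here, and other assays of the study were not analysed here.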

Additional observations from a re-analysis of the deposited data

How the results depend on the processing

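Of 419 values of single genes under the 14 alternatives, 332 kept their direction and their side of the threshold, 43 lost the call, 25 gained one and 19 changed sign. Among the counts of the related lists, 56 of 196 moved by over 1.5 times.

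The replicate block left 5 of the 30 genes higher and 3 lower, and 2077 and 1851 of all genes. The deviations of replicate 1 correlated at -0.985 between Ctrl and MYCN KD over the tested genes, in values already adjusted by RUVSeq, so how the samples were paired could not be read from them. With the crossed replicate block, 18 genes were called higher and 12 lower, and 5910 and 5262 of all genes. Among genes that averaged 5 RPKM or more, 1868 of all genes were higher. Limma voom on the recovered reads called the same 16 of the 30 genes.

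The median of the 30 genes was 0.154 with the same RPKM total, 0.156 with quantile normalization and -0.0293 without division by the sample total, where 3 genes and 1905 of all genes were called higher. Leaving out 1 sample gave medians from 0.0148 to 0.142 and from 3 to 5 genes called lower. A lone sample is then assumed to vary like the other group.

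The changes of sign were small and none was called. Without division by the sample total, the values were -0.00293 for HMGCS1, -0.0564 for FDPS, -0.0584 for SQLE, -0.00878 for HSD17B7, -0.0499 for EBP and -0.00308 for SREBF1, and the median of all genes was -0.0924. PMVK was 0.0180 with the same total and 0.0197 with quantile normalization. With 1 sample left out, PMVK ranged from -0.086 to 0.00249, SQLE from -0.00238 to 0.163, HSD17B7 from -0.00725 to 0.222, STARD4 from -0.282 to 0.107, ELOVL6 from -0.219 to 0.104 and FADS1 from -0.154 to 0.0241. The causes were not tested. The mirror-image replicates and 2 samples per group limit each p-value.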
